A study of Mus musculus with 24 samples.

Results

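The 1700-series transcripts are genes that still carry the name of the RIKEN complementary DNA clone from which they were described, and the 1700 prefix marks clones of a mouse testis library. Rows of the count files whose symbol has this form (1700, 3 digits, a letter, 2 digits and Rik) were taken, and those whose raw counts summed to 240 or more over the 24 libraries were kept. This left 286 members of 365 such rows, out of 24456 gene rows in all. The members were thus selected on their summed counts, so a member with few counts at the youngest age had to be abundant somewhere else. Of the 79 rows left out, 3 had no count in any library and 76 had a sum from 1 to 239. The nearest rows inside the limit were 1700034K08Rik, 1700094J05Rik and 1700080N15Rik, with sums of 246, 251 and 256. The nearest outside were 1700008C04Rik, 1700025C18Rik and 1700066J03Rik, with sums of 229, 221 and 209.

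RNA was sequenced from testes of wild-type (WT) mice and of mice homozygous for an Atad2 knockout (KO) allele that were 20, 22, 24 or 26 days old. Each genotype had 4 libraries on day 20, 4 on day 22, 2 on day 24 and 2 on day 26. Atad2 encodes a bromodomain ATPase of chromatin, and its knockout allele carries a lacZ cassette fused to the upstream exons, with the following exon removed by a Cre under the CMV promoter, which acts in all tissues. The mutant animals thus lacked Atad2 function in somatic cells as well as in germ cells. The strain background and the number of animals behind each library were not given in the sources used here, so p-values measure the spread between these libraries. The labels' extraction text mentions purification of spermatogenic cells, whereas the study's methods describe whole testes. Markers of Sertoli cells (8 of 8 measurable), Leydig cells (6 of 6), peritubular cells (5 of 5) and macrophages (5 of 5) were present in the libraries.

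The first wave of spermatogenesis passes through the testis in step with age. Spermatocytes are the most advanced cells until meiosis ends at about the youngest of these ages, round spermatids then appear, and elongating spermatids follow. Germ cells in late meiosis and after it transcribe a very large number of genes that other tissues keep silent, many of them long non-coding RNAs (lncRNAs) or short genes for parts of the sperm tail, the acrosome or the condensed sperm head. Activators known to act in this program include MYBL1 in pachytene spermatocytes, CREM in round spermatids and RFX2 for ciliary and spermatid genes.

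Libraries held 10709667 to 19491935 gene counts, and none was a copy of another. One library, WT day 20 replicate 2, stood apart, with 13.7% of its reads not uniquely placed against 4.74 to 9.16% elsewhere. The targeted gene was lower in the mutant on the first 3 days. Atad2 stood at 76.4 to 171 CPM (counts scaled to the size and composition of each library) in WT and 30.8 to 37.1 CPM in KO on day 20, a log2 fold change of -1.67 (adjusted p = 5.7e-05). Its log2 fold change was -1.12 on day 22, -1.43 on day 24 and -1.25 on day 26, where the adjusted p was 0.063. Epididymal markers summed to 0.251 to 894 CPM over the WT and 0.0654 to 185 CPM over the KO libraries, and their part in the results below was not tested.

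In the RefSeq annotation, 119 of the members are protein-coding, 156 are lncRNAs and 11 are pseudogenes. They lie on 20 chromosomes, with 9 on the X and 0 on the Y. RefSeq listed 246 under the clone name and 40 under a newer symbol. Names with known roles include 1700003M02Rik (Cfap206), 1700019L03Rik (Cfap157) and 1700026D08Rik (Cfap161), which encode proteins of cilia and flagella. 1700034O15Rik (Llcfc1) encodes a sperm protein needed to fuse with the egg, 1700015E13Rik (Spata46) a protein of the sperm head, and 1700123I01Rik (Majin) a protein that tethers telomeres to the nuclear membrane in meiosis. 1700024P04Rik (H2bl1) and 1700012L04Rik (H2al1m) encode histone variants of spermatids, and the latter belongs to a family of near-identical copies, so its counts are uncertain. These genes were chosen for mention after their values were seen. On the opposite strand, 76 members overlapped a protein-coding gene, and 15 did so on their own strand. Reads had been counted by strand.

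Levels differed widely among the members. Their summed counts ran from 246 to 188147 with a median of 2926.5, and the 10 most counted members held 37.5% of all member counts. Per kilobase of exon, the highest mean level over the 24 libraries was that of 1700042G15Rik, an lncRNA of chromosome 4 (373 CPM per kb). It was followed by 1700011E24Rik (Stpg4) with 263, the lncRNA 1700008K24Rik with 217, the pseudogene 1700123L14Rik with 202 and Cfap206 (1700003M02Rik) with 186 CPM per kb. The other members among the 10 highest (1700029F12Rik, 1700029P11Rik, 1700010I14Rik, 1700006A11Rik and 1700018B24Rik) lay between 160 and 182 CPM per kb. These abundant members were already present at the youngest age. 1700042G15Rik measured 280, 354, 166 and 256 CPM in WT on day 20 and 174 and 198 CPM on day 26, and the change with age did not pass the test (log2 fold change -0.50, adjusted p = 0.0826). Cfap206 measured 350, 399, 223 and 328 CPM on day 20 and 515 and 632 CPM on day 26, and its rise passed (0.82, SE 0.207, adjusted p = 0.00317).

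At the other extreme, 121 members averaged under 10 counts in the WT day 20 libraries, against 64 in KO on that day and 1 in WT on day 26. Values for such members at day 20 rest on a handful of reads. All 286 members passed the low-count filter and were among the 17170 genes tested.

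The first comparison asked how the members changed as the wave advanced in WT testes. From day 20 to day 26, 215 members rose and 8 fell, with a median log2 fold change of 2.45. Over all genes tested the median was -0.04, 24.4% of genes were called higher and 18.1% lower. For 70 of the 215 members that rose, every WT day 20 library held 3 counts or fewer. Such members met the count limit through other groups, so their rise follows in part from the selection. As the libraries are bulk tissue, more cells of a type and more RNA per cell cannot be told apart here, nor in any comparison that follows. The coding members rose in 100 of 119 cases and the lncRNAs in 107 of 156, with medians of 3.0 and 1.77. The day 26 libraries all lay above the day 20 libraries for 222 members, against a background of 27.9% of genes.

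**Figure D1:**
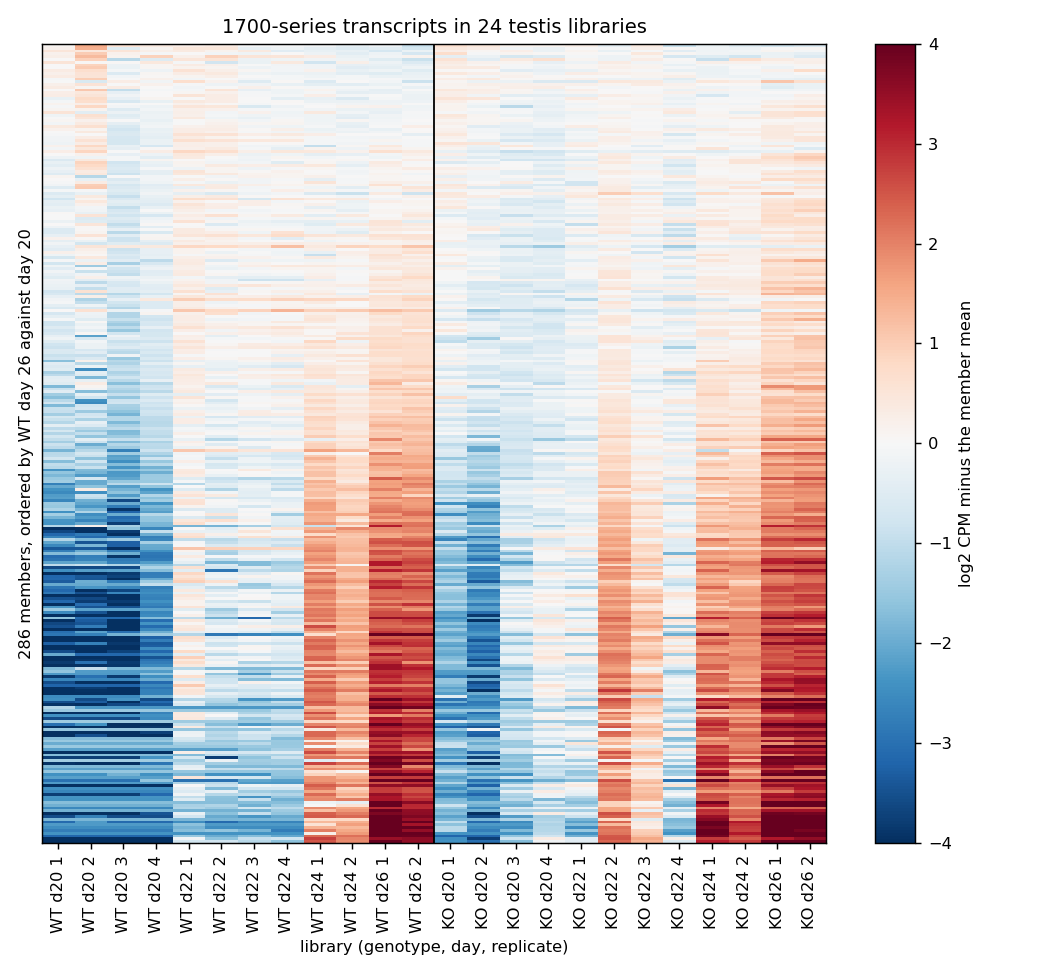
Each row is 1 of the 286 members and each column 1 library, with WT to the left of the black line and KO to the right; colour gives log2 CPM minus the member's mean over the libraries, clipped at 4 in either direction. The lower part of the map is blue in WT on day 20 and red on day 26 in both genotypes, and KO day 22 replicate 2 is redder than the other libraries of its age.

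The 8 members with the largest rise came from the floor of detection. H2bl1 (1700024P04Rik) had 0 counts in each of the 4 WT libraries of day 20, 1.48, 1.42, 1.11 and 0.716 CPM on day 22, 14.7 and 9.78 CPM on day 24, and 48.2 and 30.9 CPM on day 26. Taking 3 counts per library as the highest level that a count of 0 allows, it was at least 168-fold higher on day 26 than on day 20. The lncRNA 1700013D24Rik, also at 0 on day 20, reached 29.7 and 32 CPM on day 26, at least 131-fold higher. In both genes each age lay above the one before it with no overlap. The coding members 1700034E13Rik, 1700016C15Rik and 1700042G07Rik were at least 87.9, 79.6 and 54.9-fold higher, and the lncRNAs 1700016P04Rik and 1700009J07Rik at least 69.2 and 66.5-fold higher.

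1700027A15Rik, the last of the 8, is an lncRNA of chromosome 1 (73016036 to 73025508, plus strand, GRCm38.p6) that overlaps Tnp1 on the opposite strand. Tnp1 encodes a transition protein of elongating spermatids. The lncRNA had 1 count in all on day 20 in WT (0.105 CPM in replicate 2) and 51.0 and 22.2 CPM on day 26. The ratio of counts, corrected for depth, was 2039 with an exact interval of 365 to 80601 (95%, counting error only). Its partner moved on a like scale in the same test, with a log2 fold change of 11.56 from 0 to 0.216 CPM on day 20 to 125 to 263 CPM on day 26.

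Steps between neighbouring ages were tested next. Their numbers of calls cannot be set against each other as timing, because the ages differ in their numbers of libraries. The member median was 0.98 from day 20 to day 22, 0.81 from day 22 to day 24 and 0.49 from day 24 to day 26. Over all genes tested the medians were -0.02, 0.00 and 0.01. Between day 22 and day 20 in WT, 140 members rose and 1, 1700024P16Rik (Fyb2), fell, against 12.9% and 7.15% of all genes. Between day 24 and day 22, 99 rose and 0 fell, against 5.88% and 0.0408%. The 99 became 8 without WT day 24 replicate 1, 53 without replicate 2 of that day, and 49, 51 and 42 without WT day 22 replicates 2, 3 and 4. In all, 188 members rose in at least one of these steps and 51 in both, counts that were not taken over all genes. For 26 of the 140 and 22 of the 99, every WT library of the earlier age held 3 counts or fewer. Between day 26 and day 24, 1 member, 1700001O22Rik, rose and 0 fell, against 0.262% and 0.0116%, in a comparison of 2 libraries with 2. This coding gene measured 13 and 11.4 CPM on day 24 and 46.8 and 27.6 CPM on day 26. At this step 211 members had both day 26 libraries above both day 24 libraries and 4 had both below, where 26.6% and 19.8% of all genes did.

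The members that fell with age were 4 coding genes and 4 lncRNAs, and in 7 of the 8 the 2 ages did not overlap. The X-linked lncRNA 1700011M02Rik measured 40.9, 109, 56.5 and 48.5 CPM on day 20 and 33.1 and 20.7 CPM on day 26 (log2 fold change -1.24, SE 0.348, adjusted p = 0.00727). The highest of these values came from replicate 2, the library that stood apart. A second X-linked lncRNA nearby, 1700018G05Rik, fell by 0.82 on the log2 scale, and 1700086O06Rik on chromosome 18 by 0.92. Among the coding genes, Majin (1700123I01Rik) went from 22.4, 25.9, 16.6 and 18.7 CPM to 15.1 and 15.1 CPM (log2 fold change -0.47, adjusted p = 0.0186). 1700102P08Rik went from 178, 327, 148 and 183 CPM to 141 and 138 CPM (-0.58, adjusted p = 0.0403). The remaining falls, 1700024P16Rik and 1700025G04Rik, were of -0.39 and -0.37. 1700020N18Rik was the member whose ages overlapped. The 8 falls became 3 and 2 without WT day 26 replicates 1 and 2 and 15 without WT day 20 replicate 3, and the groups compared alone gave 0.

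KO testes went through a change of the same kind. From day 20 to day 26, 238 members rose and 4 fell in KO, against 27.2% and 24.9% of all genes, with a member median of 2.18. For 26 of the 238, every KO day 20 library held 3 counts or fewer. The ages did not overlap for 248 members higher on day 26, against 34.1% of genes. The WT and KO age comparisons share no library. 212 members rose in both genotypes, 3 were called higher in WT alone and 26 in KO alone. These joint counts were not taken over all genes. Being called in one genotype and not in the other does not show a difference. Tested directly, the change with age in KO minus that in WT was called for 0 members in either direction by edgeR, as for 0% of all genes, with 84 members (29.4%) and 10.8% of all genes at an unadjusted p under 0.05. DESeq2 called 2 higher and 17 lower.

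**Figure D2:**
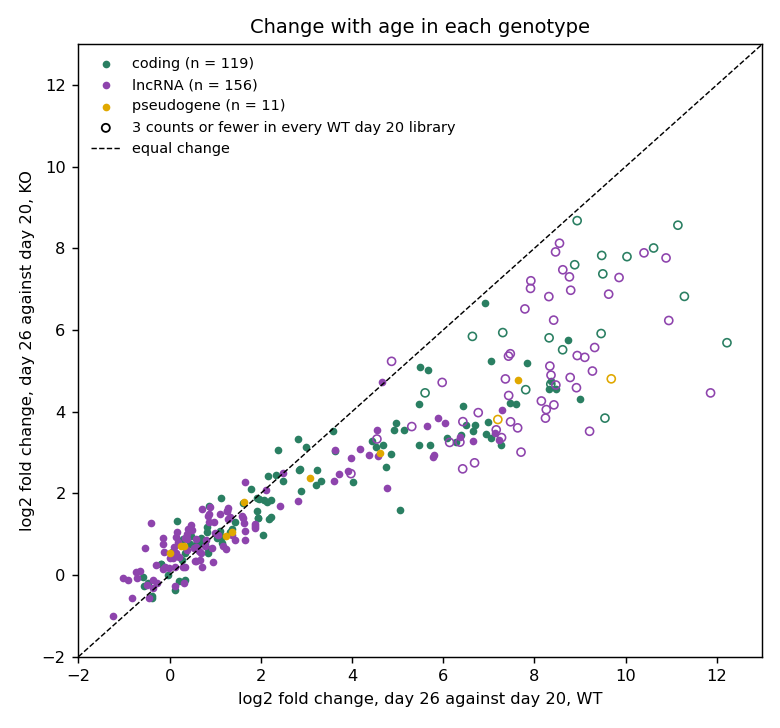
Each point is 1 member, with the fitted log2 fold change of day 26 against day 20 in WT on the horizontal axis and in KO on the vertical axis; colours give coding genes, lncRNAs and pseudogenes, open circles mark members with 3 counts or fewer in every WT day 20 library, and the dashed line marks equal change. Points with large changes lie mostly below the line, where fitted values of the open circles depend on the prior count of the fit.

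A rise with age was also seen under other clone names of testis origin. Of 383 genes named after other testis clones, all with names that begin with 49, 271 rose and 10 fell in WT from day 20 to day 26. Their median was 1.85. Of 484 genes with other RIKEN names, 82 rose and 114 fell, with a median of -0.21. Both lists were held to the count limit of the members, so a gene near the floor on day 20 could enter through later ages. How many did so was not counted. Of the 79 rows of the 1700 series under the count limit, 32 passed the low-count filter, and 27 of these rose. With so few counts, such a row could pass the filter through the groups where it was high alone. The 27 rises are thus no separate support for a shared rise. Lists of cell markers moved over the same ages. All 10 elongating spermatid markers and 9 of 10 round spermatid markers rose in WT, as did 8 of 10 pachytene and 6 of 6 Leydig cell markers, while 5 of 8 spermatogonial, 4 of 8 Sertoli cell and 3 of 5 peritubular markers fell. Summed levels of the elongating list were 2.21 to 12.5 CPM on day 20 and 2502 to 3692 CPM on day 26, and those of the Leydig list 333 to 433 CPM and 1226 to 1986 CPM. The part of these lists in the members' rise was not tested. Of 12 regulators of late meiotic and spermatid transcription, 8 rose and 1 fell. Crem rose by 0.98 and Rfx2 by 1.26 on the log2 scale, while Mybl1 had a log2 fold change of 0.01 (adjusted p = 0.97).

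The main comparison of the study is KO against WT at each age. On day 20, 46 members were called higher in KO and 4 lower, against 2.98% and 0.361% of all genes. The median log2 fold change of the members was 0.64, against 0.00 over all genes. It was 0.46 when 44 members at 3 counts or fewer in every WT library, but not in every KO library, were set at that floor. A further 26 members were at 3 counts or fewer in every library of both genotypes and kept their fitted values. Coding genes made up 28 of the 46 and lncRNAs 18, whereas all 4 lower members were lncRNAs. Genotypes did not overlap for 25 of the 46, and for 38 members higher in KO in all, against 3.03% of genes. For 8 of the 46, every WT library held 3 counts or fewer.

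1700009N14Rik, a coding gene of chromosome 4, had the largest fitted change among the called members whose genotypes did not overlap. It measured 0.0786, 0.316, 0.0578 and 0.576 CPM in WT and 2.54, 1.05, 7.20 and 13.7 CPM in KO on day 20 (log2 fold change 4.60, SE 0.853, adjusted p = 0.00795). KO replicates 3 and 4 were several times above replicates 1 and 2, and even the lowest KO library exceeded the highest WT library. On day 26 the gene stood at 131 and 130 CPM in WT and 126 and 116 CPM in KO, so the genotypes lay close together at a level far above that of day 20.

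1700013G24Rik and 1700067P10Rik, also called without overlap, had the same order of KO libraries. The coding gene 1700013G24Rik measured 0.157, 0.211, 0.347 and 0.720 CPM in WT and 1.23, 1.05, 8.32 and 16.2 CPM in KO (4.14, adjusted p = 0.0195). The lncRNA 1700067P10Rik of chromosome 17 measured 0.314, 0.105, 0.405 and 1.01 CPM in WT and 3.55, 1.44, 10.8 and 18.7 CPM in KO (4.13, adjusted p = 0.0104). In both, KO replicate 4 was the highest library and KO replicates 1 and 2 the lowest of their genotype. Spata46 (1700015E13Rik) measured 0.314, 0.211, 0.116 and 1.44 CPM in WT and 3.26, 1.31, 7.20 and 8.80 CPM in KO (3.27, adjusted p = 0.0113). Here 1 WT library was above 1 KO library, so the genotypes overlapped. Llcfc1 (1700034O15Rik) overlapped in the same way, with 0.236, 0.948, 0.347 and 2.59 CPM in WT and 6.82, 1.57, 11 and 20.8 CPM in KO (3.29, adjusted p = 0.0166). Leaving out 1 library lost the day 20 call in 5 of 24 fits for 1700013G24Rik and 4 for Llcfc1. It was lost in 2 each for 1700067P10Rik and Spata46, and in 0 for 1700009N14Rik. Some called members were well above the floor in WT. 1700017D01Rik (Ms4a20) had a log2 fold change of 0.54 and Fam186a (1700030F18Rik) of 0.89, and in both KO replicate 1 had the most counts of the mutant.

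2 lncRNAs of chromosome 13 were called on day 20 from almost no WT counts. 1700099I09Rik had 0, 0, 0 and 3 counts in WT and 5, 7, 19 and 40 in KO, a ratio of 21.4 with an exact interval of 7.04 to 106 for counting error. 1700084F23Rik had 0, 1, 0 and 2 counts in WT and 9, 3, 22 and 29 in KO, a ratio of 19.0 with an interval of 6.22 to 94.7. Leaving out 1 library lost the day 20 call of each of these 2 lncRNAs in 5 of 24 fits. Their promoters are shown because both hold the 7 letters GTTGCCA, one arm of the X-box that RFX factors bind, on one of the strands. Each window runs from 250 bases before to 50 after the RefSeq start in GRCm38.p6, is written 5′ to 3′ on the gene's strand, and has the match in capitals (TGGCAAC where it lies on the opposite strand).
1700099I09Rik, chr13:102760005-102760304, plus strand: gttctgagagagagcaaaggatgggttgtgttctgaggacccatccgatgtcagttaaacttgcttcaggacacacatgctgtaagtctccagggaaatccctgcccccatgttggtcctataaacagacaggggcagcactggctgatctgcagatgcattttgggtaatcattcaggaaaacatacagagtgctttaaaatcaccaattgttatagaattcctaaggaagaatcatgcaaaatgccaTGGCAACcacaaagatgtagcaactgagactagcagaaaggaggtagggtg
1700084F23Rik, chr13:70028299-70028598, minus strand: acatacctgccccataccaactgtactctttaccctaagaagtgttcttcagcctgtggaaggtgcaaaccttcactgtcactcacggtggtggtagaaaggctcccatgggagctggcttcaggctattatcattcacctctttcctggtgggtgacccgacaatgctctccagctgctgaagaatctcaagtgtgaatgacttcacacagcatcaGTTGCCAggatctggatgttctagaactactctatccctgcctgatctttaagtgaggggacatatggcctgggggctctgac
Searched on both strands, these letters were found in 29 of 251 promoter windows of members (11.6%) and in 4.38% of the 32851 windows of all genes. Among the 81 windows of members called higher in KO in any comparison the share was 13.6%. The full CRE, TGACGTCA, was found in 1.59% of member windows and 1.79% of all, and the MYB motif AACNGTT in 4.38% and 4.45%. A match describes these letters alone.

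On day 22, 18 members were called higher in KO and 7 lower, against 1.26% and 1.25% of all genes, with a median of 0.37 against 0.01. The member median was 0.28 with members at 3 counts or fewer in every WT library set at that floor. The groups did not overlap for 26 members higher in KO and 12 lower, against 3.64% and 4.45% of genes. 9 of the 18 were coding and 9 were lncRNAs, while all 7 lower members were lncRNAs. The 2 days called different members higher. Of 63 called on either day, 1, the coding gene 1700019D03Rik, was called on both, although a missed call does not show a lack of change. It measured 0.157, 0.316, 0.0578 and 0.144 CPM in WT and 1.02, 0.392, 3.10 and 4.61 CPM in KO on day 20 (3.84, adjusted p = 0.0219). On day 22 it measured 4.30, 2.09, 2.68 and 2.20 CPM in WT and 5.20, 23.6, 11.5 and 5.70 CPM in KO (2.03, adjusted p = 0.0415). This second call was lost in 17 of 24 fits that each left out 1 library, without the low-count filter and with the groups compared alone. The day 20 call was lost in 6 of the fits that left out 1 library.

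For 8 of the 18, every WT library of day 22 held 3 counts or fewer, and the 5 largest fitted changes without overlap were among these. 1700027F06Rik, an lncRNA of chromosome 6, had 0 counts in all 4 WT libraries and 1, 43, 16 and 3 counts in KO, at least 4.94-fold higher. 1700027A15Rik, opposite Tnp1, had 1, 0, 1 and 1 counts in WT and 2, 93, 22 and 3 in KO, a ratio of 39.8 with an exact interval of 13.3 to 196 for counting error. The lncRNAs 1700025N23Rik (WT 2, 2, 0 and 0 counts, KO 9, 40, 22 and 5) and 1700063D05Rik (WT 0, 0, 1 and 2, KO 3, 26, 14 and 9) and the coding gene 1700071K01Rik (WT 1, 0, 0 and 0, KO 2, 20, 4 and 2) had the same form. In each of the 5, KO replicate 2 held the most counts and replicates 1 and 4 the fewest of the mutant. Leaving out 1 library lost the day 22 call in 13 of 24 fits for 1700071K01Rik, 11 for 1700027A15Rik, 4 each for 1700027F06Rik and 1700063D05Rik, and 2 for 1700025N23Rik, and that of 1700027A15Rik was also lost without the low-count filter. Tnp1 and Prm1, which encodes a protamine of the condensed sperm head, were also higher in KO on day 22 (log2 fold changes 4.50 and 5.53, adjusted p = 0.036 and 0.030).

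**Figure D3:**
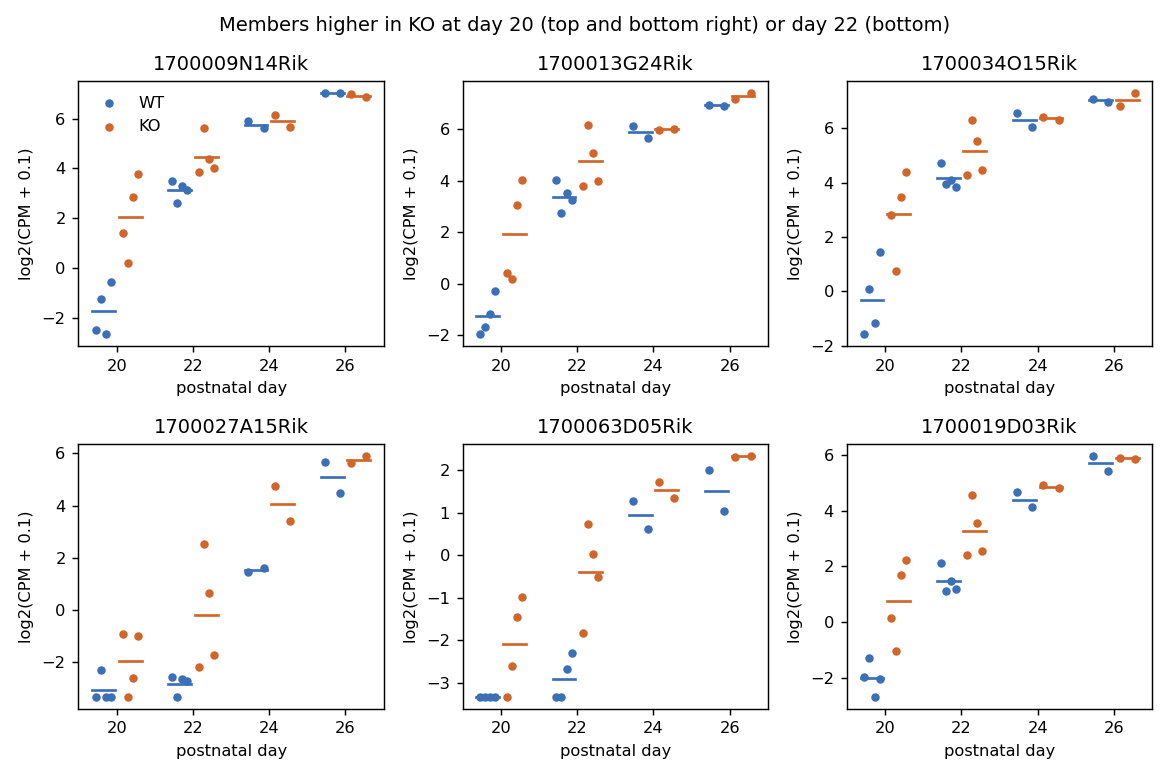
Each panel shows 1 member, with postnatal day on the horizontal axis and log2(CPM + 0.1) on the vertical axis; points are libraries and bars are group means, WT in blue and KO in orange. KO lies above WT with no overlap on day 20 in 1700009N14Rik and 1700013G24Rik, and the 2 genotypes lie close together on day 26 at a far higher level.

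How far a call depends on single libraries differed by direction. Without WT replicate 3, 6 members were called higher on day 20. Without WT replicate 1 there were 17, without WT replicate 2 there were 21, without KO replicate 4 there were 16 and without KO replicate 3 there were 25. On day 22 the count was 1 without KO replicate 2, 11 without KO replicate 3, 3 without WT replicate 2, and 0 without WT replicate 3 or without WT replicate 4. It rose to 57 without KO replicate 1 and to 40 without KO replicate 4. Fitted with the libraries of the compared groups alone, 0 members were called higher on either day, and DESeq2 called 76 and 41.

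Marker lists moved with these calls. On day 20, 8 of 10 round spermatid and 5 of 10 elongating spermatid markers were higher in KO, with the elongating list summing to 2.21 to 12.5 CPM in WT and 8.70 to 164 CPM in KO. On day 22, 0 and 4 of the same lists were called, with sums for the elongating list of 63.8 to 153 CPM in WT and 138 to 862 CPM in KO. Acrv1, an acrosomal protein of round spermatids, had a log2 fold change of 3.96 on day 20 (adjusted p = 0.0073). Their part in the members' difference was not tested. Among the 12 regulators, 0 were called on day 20 and 1, the CREM coactivator Fhl5, was higher on day 22 (log2 fold change 2.30, adjusted p = 0.029). The median of log2 CPM over the members, centred on each member's mean, ran from -1.48 to -1.06 in the WT and from -0.98 to -0.35 in the KO libraries of day 20. On day 22 the libraries overlapped, at -0.20 to 0.17 in WT and -0.22 to 0.61 in KO.

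On day 24, 0 members were higher and 1, 1700047M11Rik, was lower, against 0.0175% and 0.0699% of all genes. On day 26, edgeR called 0 in either direction, against 0% and 0.0466%, with 27 members (9.44%) and 11.5% of all genes at an unadjusted p under 0.05. DESeq2 called 3 higher and 1 lower, and edgeR on the groups compared alone 51 and 8. Both days had 2 libraries per genotype. The member median was 0.11 on day 24 and 0.22 on day 26, against -0.01 and -0.04 over all genes. Both KO libraries lay above both WT libraries on day 26 for 146 members, and below for 44, where the shares over all genes were 27.8% and 31.1%. Among the 9 X-linked members, 5 had a positive value on day 20, 7 on day 22, 7 on day 24 and 1 on day 26, with medians of 0.63, 0.36, 0.15 and -0.38. With members at the floor in WT alone set at that floor, the X-linked medians were 0.20 on day 20 and 0.21 on day 22. On day 26, 45.7% of all genes had a positive value. H2al1m (1700012L04Rik), which belongs to a multicopy family, was one of the 8 with a negative value (-0.38). No X-linked member was called on that day.

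**Figure D4:**
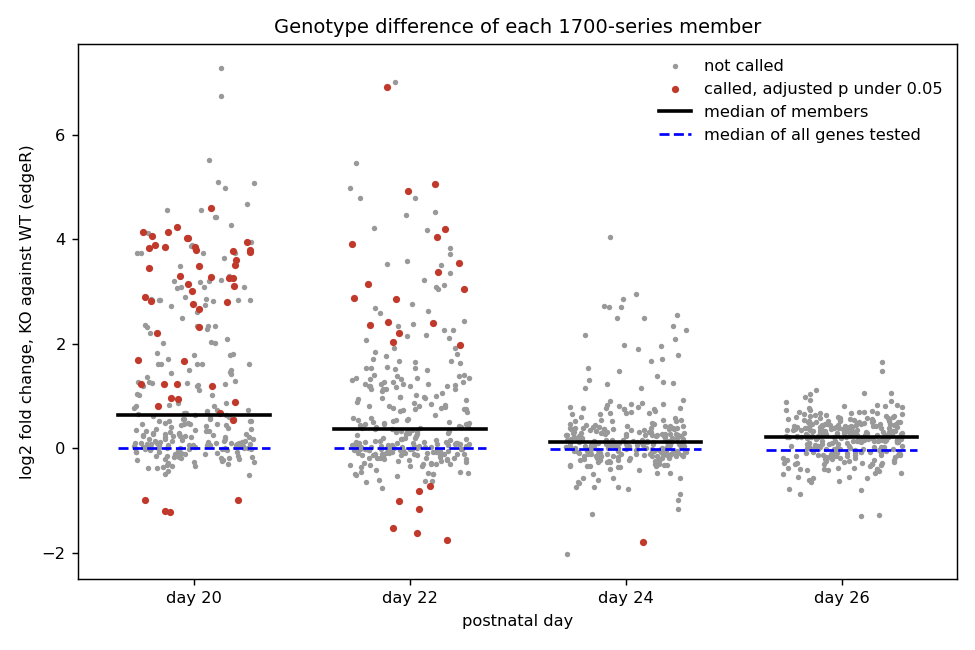
Each point is the fitted log2 fold change of 1 member in KO against WT, by postnatal day; red points passed an adjusted p of 0.05, solid bars are medians over the members and dashed bars medians over all genes tested. The member median is 0.64 on day 20, 0.37 on day 22, 0.11 on day 24 and 0.22 on day 26.

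Over the mean of the 4 days, 54 members were higher in KO and 6 lower, against 3.52% and 3.56% of all genes, and 37 of the 54 had a positive value on each of the 4 days. The higher members comprised 29 coding genes, 24 lncRNAs and 1 pseudogene. The choice of members on this mean favours a positive value on each day, so the 37 are no separate support. This pooled value uses the same libraries as the comparisons by day. Its called members with the largest changes were 1700027A15Rik (2.86, adjusted p = 0.0255), H2bl1 (2.52, adjusted p = 0.0255) and 1700063D05Rik (2.44, adjusted p = 0.0101). The lncRNA 1700020G17Rik (2.29), 1700025N23Rik (2.10), the coding gene 1700012A03Rik (2.07), the pseudogene 1700022A21Rik (2.03) and the lncRNA 1700031M16Rik (1.86) came next. Leaving out 1 library lost the call in 16 of 24 fits for 1700020G17Rik, 20 for 1700012A03Rik, 19 for 1700031M16Rik, 7 for 1700022A21Rik, 5 each for 1700027A15Rik and 1700025N23Rik, 4 for H2bl1 and 0 for 1700063D05Rik. Without the low-count filter the calls of 1700020G17Rik, 1700012A03Rik and 1700031M16Rik were lost. The count was 8 without WT day 24 replicate 2 and 90 without KO day 22 replicate 1, and DESeq2 called 98. On the same scale the 49 series had 72 higher and 8 lower of 383, and the remaining RIKEN names 10 and 13 of 484. Of the 32 tested rows under the count limit, 2 were higher and 1 lower. 9 of 10 elongating and 5 of 10 round spermatid markers were higher, and 2 of 5 peritubular and 2 of 4 endothelial markers lower.

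The 6 members lower in KO over the mean of the days were all lncRNAs. All 6 had a negative value on each day, but their choice on that mean favours this. They made up 2.10% of the members, a smaller share than the 3.56% of all genes called lower. Summed over the comparisons, 8 members were called lower in KO, all 8 of them lncRNAs, while the 84 called higher comprised 47 coding genes and 36 lncRNAs. Such sums, and their split into coding genes and lncRNAs, were not taken over all genes. The comparisons summed also share libraries, so the split is not read as a result about lncRNAs. 3 of the 8 were lower on both day 20 and day 22, namely 1700047M11Rik, 1700065L07Rik and 1700100I10Rik.

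1700047M11Rik, an lncRNA of chromosome 1 (182300834 to 182303289, plus strand, GRCm38.p6), separated the genotypes at every age. It measured 3.06, 4.63, 2.54 and 2.88 CPM in WT and 2.03, 1.05, 1.32 and 1.22 CPM in KO on day 20. On day 22 it measured 6.48, 5.27, 5.82 and 7.88 CPM in WT and 1.69, 2.40, 1.65 and 1.74 CPM in KO. On day 24 the values were 5.77 and 6.32 CPM against 1.93 and 1.57 CPM, and on day 26 they were 7.18 and 6.39 CPM against 2.69 and 2.81 CPM. All 12 WT libraries lay above every KO library of the same age. The log2 fold changes were -1.21, -1.76, -1.78 and -1.30 in order of age, with adjusted p-values of 0.00733, 9.04e-05, 0.0204 and 0.0862. Taken over all 4 ages it was lower by a log2 value of -1.51 (SE 0.131, adjusted p = 3.16e-07), which lay between -1.57 and -1.46 when any 1 library was left out. The call of day 24 was lost without either KO library of that day or without WT replicate 2 of that day, and with the groups compared alone.

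1700065L07Rik, on the minus strand of chromosome 6 (73436965 to 73471021), measured 5.50, 9.90, 9.08 and 9.14 CPM in WT and 5.73, 5.49, 3.24 and 2.51 CPM in KO on day 20, where 1 KO library exceeded the lowest WT library. On day 22 it measured 12.4, 12.2, 10.5 and 16 CPM in WT and 4.84, 5.95, 4.35 and 2.61 CPM in KO, with no overlap. Taken over all 4 ages the value was -1.24 (SE 0.157, adjusted p = 4.93e-05). 1700006H21Rik of chromosome 13 (107687397 to 107692168, plus strand) differed by day. It measured 1.73, 0.737, 1.5 and 2.59 CPM in WT and 1.96, 1.11, 1.32 and 1.49 CPM in KO on day 20 (-0.19, adjusted p = 0.88). On day 22 it measured 3.94, 3.18, 3.26 and 3.73 CPM in WT and 0.787, 1.68, 1.19 and 0.939 CPM in KO (-1.61, adjusted p = 0.00473). All WT libraries of day 22 lay above those of day 20 while the KO libraries of these days overlapped, and the change of the genotype difference between them was not tested. Taken over all 4 ages the value was -0.96 (adjusted p = 0.0022).

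The promoters of these members are shown because they were the ones most reduced in KO over the 4 days. Windows are as above, and capitals in 1700065L07Rik mark a full CRE, TGACGTCA, 23 bases after the start.
1700047M11Rik, chr1:182300584-182300883, plus strand: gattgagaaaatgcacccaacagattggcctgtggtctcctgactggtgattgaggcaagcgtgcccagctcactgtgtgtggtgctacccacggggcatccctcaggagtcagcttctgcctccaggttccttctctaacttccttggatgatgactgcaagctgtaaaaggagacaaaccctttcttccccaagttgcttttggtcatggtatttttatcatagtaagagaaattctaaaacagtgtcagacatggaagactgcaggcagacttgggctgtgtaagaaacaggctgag
1700065L07Rik, chr6:73470972-73471271, minus strand: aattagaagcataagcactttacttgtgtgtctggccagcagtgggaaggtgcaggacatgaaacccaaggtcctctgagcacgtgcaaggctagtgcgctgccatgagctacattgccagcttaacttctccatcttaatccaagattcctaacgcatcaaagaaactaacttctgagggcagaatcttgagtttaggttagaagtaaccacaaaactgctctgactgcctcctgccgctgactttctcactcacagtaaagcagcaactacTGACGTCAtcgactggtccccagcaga
1700006H21Rik, chr13:107687147-107687446, plus strand: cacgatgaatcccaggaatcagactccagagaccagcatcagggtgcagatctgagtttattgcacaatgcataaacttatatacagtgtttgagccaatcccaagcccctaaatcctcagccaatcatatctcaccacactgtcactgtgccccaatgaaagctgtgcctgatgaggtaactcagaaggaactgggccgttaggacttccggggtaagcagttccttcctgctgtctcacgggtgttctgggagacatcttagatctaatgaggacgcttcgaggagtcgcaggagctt
Of the motifs searched, none was found in the windows of 1700047M11Rik and 1700006H21Rik.

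1700100I10Rik was the most abundant of the lower lncRNAs. It measured 37.6, 57.6, 30.8 and 38.4 CPM in WT and 25.6, 21.6, 16.6 and 18.5 CPM in KO on day 20 (-0.99, adjusted p = 0.00569). On day 22 it measured 56.6, 50.2, 37.4 and 43.4 CPM in WT and 22.6, 25.5, 23.3 and 22.2 CPM in KO (-1.0, adjusted p = 0.00473). Genotypes were apart on both days. 1700003I22Rik, of chromosome 1, overlapped on day 20 and measured 14.7, 16, 14.4 and 17.6 CPM in WT and 7.14, 9.26, 6.72 and 5.03 CPM in KO on day 22 (-1.15, adjusted p = 0.00788). 1700047E10Rik, of chromosome 14, measured 2.12, 4.53, 2.02 and 3.53 CPM in WT and 1.38, 1.5, 1.06 and 1.22 CPM in KO on day 20 (-1.22, adjusted p = 0.0146). It overlaps the predicted gene Gm8212 on the other strand. On day 22, 1700010K23Rik and 1700017G19Rik were also called, with log2 fold changes of -0.82 and -0.73.

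**Figure D5:**
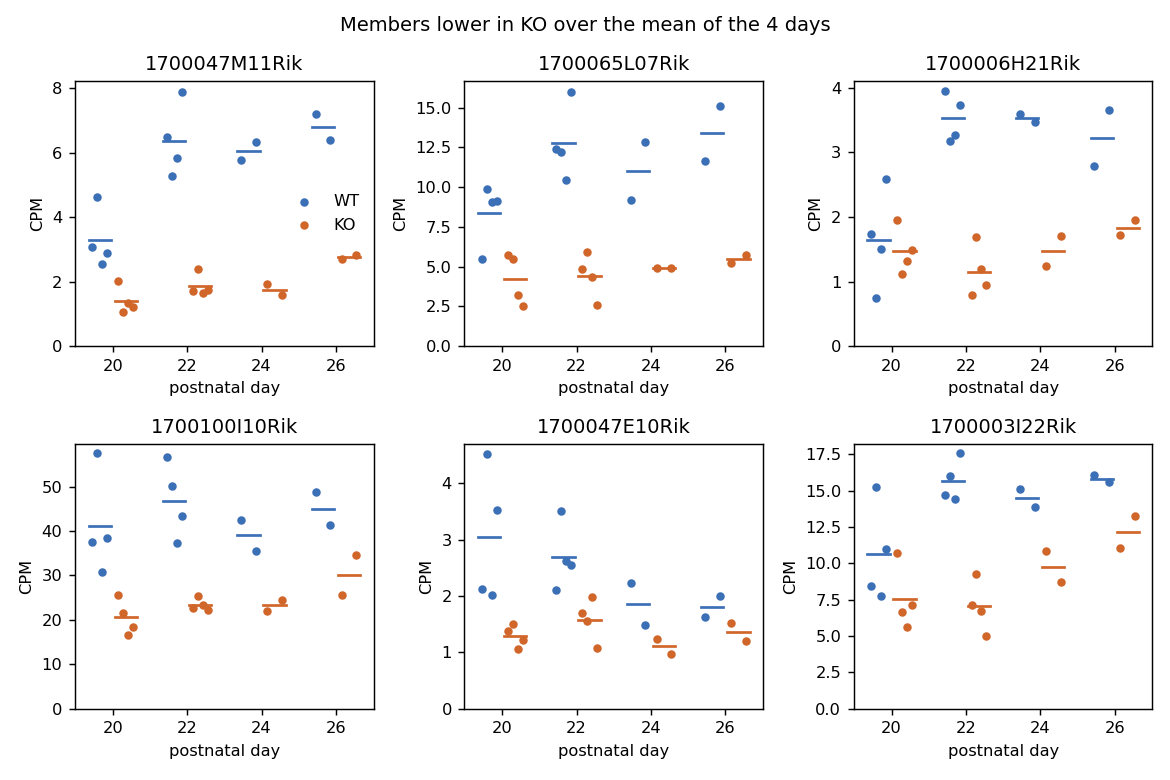
Each panel shows 1 of the 6 lncRNAs lower in KO over the mean of the 4 days, with postnatal day on the horizontal axis and CPM on the vertical axis; points are libraries and bars are group means, WT in blue and KO in orange. 1700047M11Rik is lower in every KO library than in any WT library of its age, and in 1700006H21Rik the WT libraries of day 22 lie above those of day 20.

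Leaving out any 1 library gave 2 to 4 lower calls on day 20, 5 to 9 on day 22 and 6 or 7 for the 4 ages together. With the groups compared alone, day 20 gave 0. All 6 had more than 3 counts in every library. In WT from day 20 to day 26 the log2 fold change was 1.07 for 1700047M11Rik (adjusted p = 0.00132) and 0.13 for 1700100I10Rik (adjusted p = 0.629).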

How the data were processed

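Total RNA of testes was depleted of ribosomal RNA, made into stranded libraries (TruSeq) and sequenced in pairs on a NextSeq 500. Per the labels and the study's methods, the authors aligned the reads to mm10 with STAR 2.7.11b and deposited raw read counts per gene from HTSeq, which counted exons on the reverse strand, kept only reads inside a feature and dropped reads placed more than once. The gene model was not given in the sources used here. The study's methods give fewer day 20 replicates than the labels, and all libraries labelled were used. The deposited counts of 24 libraries in 8 groups were tested with edgeR 4.0.16 (R 4.3.3): TMM scaling, filterByExpr at its defaults (minimum count 10), 1 coefficient per group, robust quasi-likelihood F-tests, two-sided, with Benjamini-Hochberg adjustment over the 17170 genes tested. A gene was called at an adjusted p under 0.05. Members were read from the whole-table result. CPM are TMM-scaled, and intervals and floors of 3 counts cover counting error only. Rows that name no gene were left out, and they held 45.1 to 58.5% of reads as no feature.

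The members, the marker lists and the tests were chosen with earlier results of these data known. Named members followed a rule: the 10 highest per exon length, the 8 largest rises and falls with age that do not overlap, the 5 largest called changes per day and direction without overlap, the 8 largest over the mean of the days with 1 sign on all days, and the rows next to the count limit. Any other member named was chosen after its values were seen. Annotation and promoters are from RefSeq (GRCm38.p6). Promoter windows were found for 228 members, and exon lengths and overlaps came from GENCODE M21 for 280 of the 286 members. The test of KO against WT at the youngest age was also run on simulated counts with a single fixed spread. Changes were placed only in genes well above the floor, so that run does not cover members near it. DESeq2 1.42.0, RLE scaling, no low-count filter, the groups compared alone, a replicate block and leaving out each library were tried.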

Additional observations from a re-analysis of the deposited data

Results flagged for a closer look

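In groups of 4 libraries, 13 of 112 sets of values examined had 1 library set apart by a gap beyond Dixon's 95% limit, where chance gives about 1 in 20. Several of these sets hold single reads in an otherwise empty group. 1700027A15Rik was at 0.105 CPM in WT day 20 replicate 2 with 0 in the other libraries, 1700027F06Rik at 0.157 CPM in WT day 20 replicate 1, and 1700016C15Rik at 0.203 CPM in KO day 20 replicate 4. 1700071K01Rik was at 0.105 CPM in WT day 20 replicate 2, 0.203 CPM in KO day 20 replicate 4 and 0.0704 CPM in WT day 22 replicate 1, each time with 0 elsewhere in the group. It was at 1.20 CPM in KO day 22 replicate 2, with 0.121 to 0.264 CPM in the others.

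Spata46 (1700015E13Rik) was at 1.44 CPM in WT day 20 replicate 4, with 0.116 to 0.314 CPM in the others, and at 12.9 CPM in WT day 22 replicate 1, with 7.11 to 8.03 CPM in the others. The median of centred log2 CPM over the members was 0.17 in that same library, with -0.20 to -0.15 in the others of its group. The members' share of all counts was 0.881% in KO day 20 replicate 1, with 0.738 to 0.751% in the others. 1700047M11Rik was at 2.40 CPM in KO day 22 replicate 2, above 1.65 to 1.74 CPM in the others and below every WT library of its age. 1700102P08Rik was at 143 CPM in KO day 22 replicate 4, with 184 to 192 CPM in the others.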

How the results depend on the processing

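No called value of a named member changed sign. Without WT day 20 replicate 2, the uncalled changes of 1700008K24Rik and 1700029P11Rik from day 20 to day 26 in WT turned from -0.12 to 0.13 and from -0.19 to 0.077, and over the fits that each left out 1 library their lowest values were -0.28 and -0.39. With DESeq2, members called higher in KO were 76 on day 20, 41 on day 22, 3 on day 26 and 98 over the 4 days together, 1 was lower on day 26, 6 rose from day 24 to day 26, and the difference between genotypes in the change with age was called for 2 higher and 17 lower. With the groups compared alone, KO against WT gave 0 higher and 0 lower on day 20, 0 higher on day 22, 0 lower on day 24, and 51 higher and 8 lower on day 26, while in WT 0 fell from day 20 to day 22, 2 fell from day 22 to day 24, 53 rose from day 24 to day 26 and 0 fell from day 20 to day 26. The 7 named falls with age lost their calls in that fit. RLE scaling gave 2 rises from day 24 to day 26 and lost the fall of 1700102P08Rik. The cause of these differences was not tested.

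Same-numbered WT and KO libraries share only a number: their deviations correlated at -0.459 to 0.416 over 12 pairs, 7 above 0.1, and 7 correlated best with their own number. With a replicate block, 53 members were higher and 3 lower on day 20, 14 and 6 on day 22, and 65 and 7 over the 4 days together. The block gave 0 lower on day 24, 40 rises and 1 fall from day 22 to day 24 in WT, and 7 falls from day 20 to day 26 in KO. Calls lost under it include 1700047M11Rik on day 24, 1700019D03Rik and 1700071K01Rik on day 22, 1700012A03Rik and 1700031M16Rik over the 4 days, and the fall of 1700025G04Rik.

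Leaving out 1 library gave these ranges for KO against WT: 6 to 65 higher and 2 to 4 lower on day 20, 0 to 57 and 5 to 9 on day 22, 0 higher and 0 to 1 lower on day 24, 0 to 2 and 0 to 1 on day 26, and 8 to 90 and 6 to 7 over the 4 days together. In WT they were 116 to 152 rises and 1 to 3 falls from day 20 to day 22, 8 to 116 and 0 to 1 from day 22 to day 24, 0 to 21 and 0 falls from day 24 to day 26, and 203 to 221 and 2 to 15 from day 20 to day 26. The 8 rises from day 22 to day 24 came without WT day 24 replicate 1, and the 21 rises from day 24 to day 26 without KO day 22 replicate 2. In KO from day 20 to day 26, 210 to 241 rose and 2 to 5 fell. The difference between genotypes in the change with age gave 0 higher and 0 to 23 lower, 23 without KO day 20 replicate 2. Of the values for single members, 1651 kept direction and call, 203 kept direction only, 7 gained a call and 2, both uncalled, changed sign. On average, 121 members had under 10 counts in WT on day 20, and the effect of depth on the calls was not tested.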

Other observations

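Of the members, 33 start within 1000 bases of another gene that runs the other way, and 25 have a neighbour of this kind among the genes tested. From day 20 to day 26 in WT, 18 of these 25 members rose, where 75.2% of all members and 24.4% of all genes did. The neighbours of these 18 members rose in 8 cases, fell in 1 and were not called in 9. The median log2 fold change was 1.63 for the members and 0.197 for the neighbours. 1700018B08Rik and 1700030M09Rik are each other's neighbour, so this pair was counted from both sides.

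Just under the count limit, 1700008C04Rik had mean levels of 0.706, 1.18, 1.18 and 1.07 CPM in WT and 0.274, 0.178, 0.305 and 0.361 CPM in KO on days 20, 22, 24 and 26. It was chosen after its values were seen.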
